A study of Equus caballus with 24 samples.

Results

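Motile cilia are hair-like organelles that beat by means of dynein motors. They are built on a ring of microtubule doublets around a central pair, and radial spokes, nexin links and docking complexes join the parts. In the brain they are known from ependymal cells and, in modified form, from the choroid plexus, and outside it from airway, oviduct and sperm. The genes described here were chosen by symbol, and the rule named 9: FOXJ1, DNAH5, DNAH9, CCDC39, RSPH1, MNS1, LRRIQ1, CDHR3 and HYDIN. HYDIN was not found by its symbol and is not analysed here, which leaves 8 of the 24232 genes with deposited reads. Because their names were chosen with earlier results of these libraries known, their levels and fold changes are given as a description without p-values.

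Pituitary and long bone epiphysis RNA was sequenced from 12 female horses, 6 Debao ponies (DPs), a small pony breed, and 6 Mongolian horses (MHs), a larger breed. Juveniles were under 3 years of age and adults over 3 years, and the labels name no treatment. Each of the 8 groups holds 3 libraries: DPPJ (juvenile) and DPPA (adult) for the pituitary of DPs, MHPJ and MHPA likewise for MHs, and the matching long bone groups DPLBJ, DPLBA, MHLBJ and MHLBA. The breeds differ in body size, and they were compared in tissues related to growth at both stages. Between 11433209 and 23573036 reads were counted on genes in a pituitary library and between 11616518 and 27007342 in a long bone library. In a whole tissue, fewer cells of a type and less RNA per cell cannot be told apart.

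The libraries labelled pituitary did not all hold RNA of the hormone cells. The summed level of 9 anterior pituitary genes (hormones and their regulators, among them GH for growth hormone, PRL for prolactin and POU1F1 for their shared transcription factor) lay between 20040 and 53072 RPKM, a read count scaled by gene length and library size, in 7 of the 12. In the other 5 it was 112 RPKM in DPPA replicate 1, 1.33 in MHPA replicate 1, and 0.29, 12.4 and 0.44 in MHPJ replicates 1 to 3, and GH itself was between 0 and 6.47 RPKM there. GFAP, a filament protein of astrocytes and pituicytes, was at 3609 RPKM in DPPA replicate 1, 2418 in MHPA replicate 1, and 1218, 26.4 and 892 in MHPJ replicates 1 to 3. Among the hormone-rich libraries, DPPJ replicate 2 also stood at 1393 RPKM of GFAP, against 2.3 to 71.2 RPKM in the other 6. MHPJ replicate 2 differed again, with 2919 RPKM of the glial gene S100B, 2379 of the myelin gene MBP, 0.81 of the oligodendrocyte gene MOG, and 21.2 of KRT5, a keratin of basal epithelial cells. TTR, the transthyretin that choroid plexus makes in bulk, was at 12029 RPKM in MHPA replicate 1 and between 0.07 and 24.8 RPKM in the other 11 pituitary libraries. The choroid plexus genes KCNJ13, KL and OTX2 had their highest level in that library too, at 97.1, 17.7 and 50.6 RPKM. Summed over their lists, the 7 astrocyte and pituicyte genes found (of 7) ranged from 61 to 2158 RPKM in DPPJ, 37 to 5531 in DPPA, 2381 to 3013 in MHPJ and 36.2 to 4471 in MHPA. The 5 oligodendrocyte genes (of 5) ranged from 87.3 to 1551, 50.8 to 2383, 2769 to 4549 and 60.2 to 11703 RPKM in the same order, and the 5 choroid plexus genes (of 6) from 38.2 to 74.2, 33.6 to 101, 13.8 to 30.8 and 28.5 to 12387 RPKM. The 8 neuron genes summed to between 77.9 and 2902 RPKM, and AVP, the vasopressin gene, was at 2106 RPKM in DPPA replicate 1. Of the 5 pituitary marginal and stem cell genes found, EPCAM was at 450 to 679 RPKM in the 7 libraries with hormone genes and at 2.44 to 32.9 in the other 5. The airway genes SCGB1A1, MUC5B, KRT5 and TP63 summed to between 0.07 and 23.4 RPKM in the pituitary libraries. The tanycyte genes RAX and GPR50 summed to between 0.04 and 13.2 RPKM. The 7 bone and cartilage genes summed to between 2085 and 24107 RPKM in the long bone libraries and between 30.5 and 1347 in the pituitary libraries. Every result on the juvenile MH pituitary rests on 3 libraries without hormone genes, and breed, stage and the tissue in the tube cannot be told apart there.

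**Figure D1:**
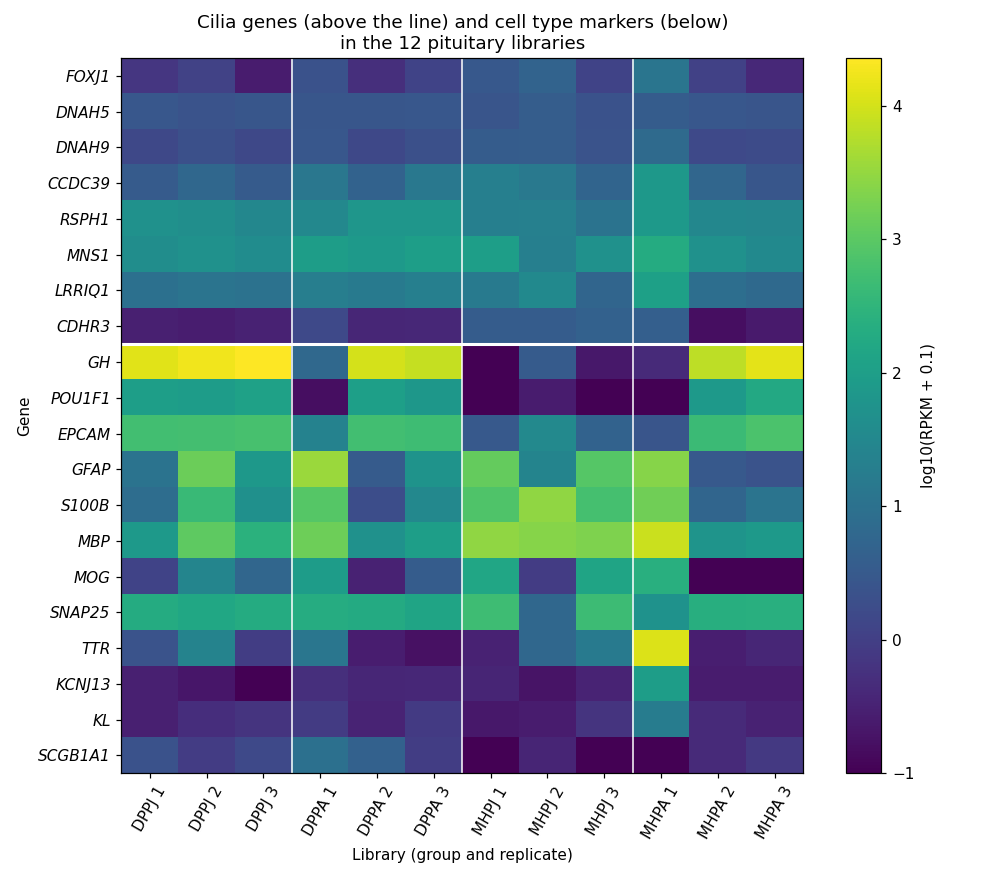
Levels of the 8 cilia genes (above the white line) and of 12 marker genes (below) in the 12 pituitary libraries, as log10(RPKM + 0.1). GH and POU1F1 are dark in DPPA 1, MHPJ 1 to 3 and MHPA 1, TTR is bright in MHPA 1 alone, and most cilia genes are brightest in MHPA 1.

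The regulator came first. FOXJ1, the transcription factor that switches on motile cilia genes, stood at 0.59, 1.05 and 0.15 RPKM in DPPJ, 2.15, 0.44 and 1.11 in DPPA, 2.91, 4.91 and 1.09 in MHPJ, and 12.1, 0.99 and 0.32 in MHPA, in the order of the replicates. In the long bone it was between 0.03 and 0.33 RPKM, on 1 to 13 reads per library, and 3 of these 12 libraries had at most 3 reads. The highest pituitary library, MHPA replicate 1, was 2.47 times the second, and the lowest, DPPJ replicate 3, fell within the long bone range.

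The dynein heavy chains were DNAH5 and DNAH9, which power the stroke from the outer dynein arm. DNAH5 was the steadiest of the 8 genes in the pituitary. Its level was 2.72, 2.29 and 2.66 RPKM in DPPJ, 2.6, 2.56 and 2.72 in DPPA, 2.49, 3.65 and 2.19 in MHPJ and 3.61, 2.73 and 2.49 in MHPA, a highest value 1.67 times the lowest. All 4 pituitary groups overlapped, whether or not a library held hormone genes, GFAP or TTR. In the long bone DNAH5 was between 0.01 and 0.09 RPKM, with 3 to 33 reads, and the ratio of the tissue medians was 105. DNAH9 was at 1.37, 1.95 and 1.34 RPKM in DPPJ, 2.74, 1.33 and 1.93 in DPPA, 3.47, 3.78 and 2.26 in MHPJ and 7.02, 1.44 and 1.56 in MHPA. Its juvenile pituitary groups did not overlap, although the share of all genes without overlap there was not counted. Its long bone libraries lay between 0.04 and 0.5 RPKM.

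Among the structural genes of the axoneme were those of highest level, with a median over the 12 pituitary libraries of 51.1 RPKM for MNS1 and 30.8 for RSPH1. CCDC39, a coiled-coil protein of the ruler that sets the axoneme's repeat, had 3.27, 6.18 and 3.28 RPKM in DPPJ, 13.4, 4.76 and 13.9 in DPPA, 20.9, 14.6 and 5.15 in MHPJ and 72.1, 5.84 and 2.64 in MHPA. MHPA replicate 1 was 3.44 times the next library, while replicate 3 of the same group was the lowest of the 12. RSPH1, a protein of the radial spoke head, stood at 52.4, 44.5 and 30 RPKM in DPPJ, 31.6, 66.6 and 65 in DPPA, 20.7, 21.4 and 10.7 in MHPJ and 76.1, 29.8 and 28.8 in MHPA. Here the juvenile MH libraries were the 3 lowest of the 12 pituitary libraries. MNS1, a protein inside the doublet microtubules, had 42.3, 50.1 and 39.9 RPKM in DPPJ, 96.4, 74.1 and 100 in DPPA, 99, 20.4 and 52 in MHPJ and 197, 50.2 and 34.1 in MHPA. Its DPPA libraries all lay above its DPPJ libraries, while MHPJ and MHPA each ranged from below the DPPJ libraries to the DPPA level or above.

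The remaining genes were LRRIQ1 and CDHR3. LRRIQ1, a protein with leucine-rich repeats and an IQ motif, stood at 9.27, 11.6 and 10.2 RPKM in DPPJ, 19.4, 16 and 20.4 in DPPA, 16, 34.8 and 5.46 in MHPJ and 113, 8.41 and 6.57 in MHPA. CDHR3, a cadherin-related protein known from ciliated airway cells, was at 0.19, 0.17 and 0.23 RPKM in DPPJ, 1.43, 0.27 and 0.3 in DPPA, 3.58, 3.53 and 4.5 in MHPJ and 4.07, 0.06 and 0.14 in MHPA. The 5 libraries without hormone genes had 109 to 260 reads of CDHR3 and the other 7 had 3 to 21, a split seen in the data and not tested.

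**Figure D2:**
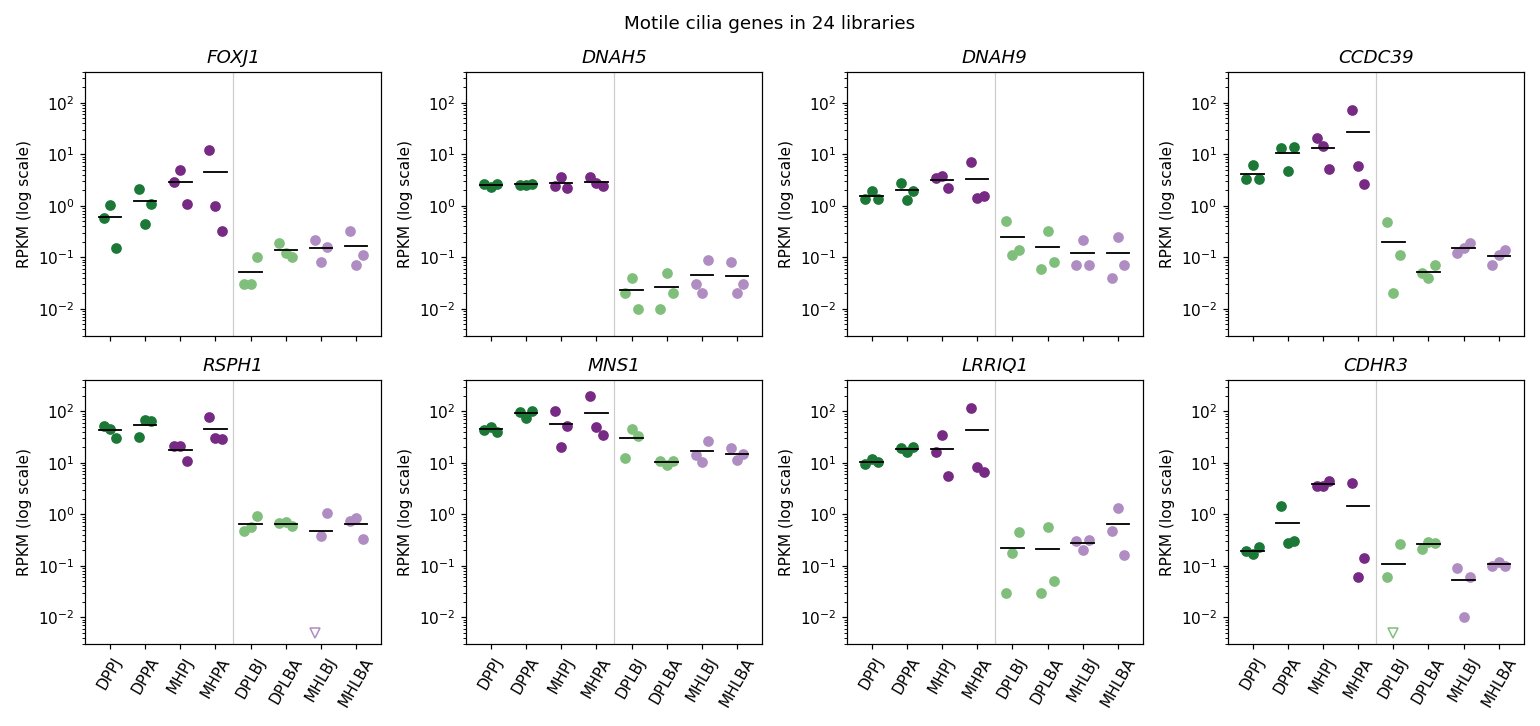
RPKM of the 8 cilia genes in all 24 libraries on a log scale, 1 point per library and a black line at the mean of each group of 3, with open triangles for libraries at 0. DNAH5 forms a flat band in the pituitary, CDHR3 is high in MHPJ, and MHPA replicate 1 stands above its group in all 8 panels.

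Between tissues, 5 of the 8 genes did not overlap: DNAH5, DNAH9, CCDC39, RSPH1 and LRRIQ1 were higher in each of the 12 pituitary libraries than in any long bone library, as were 3.77% of the 24248 genes with an RPKM. The ratio of the medians was 20.4 for DNAH9, 54.6 for CCDC39, 48.5 for RSPH1 and 55.3 for LRRIQ1. MNS1 overlapped, with 8.91 to 44.5 RPKM in the long bone and a ratio of the medians of 3.85, and so did FOXJ1 (10.2) and CDHR3 (2.85). DEGs were called with edgeR's quasi-likelihood test where the fold change exceeded 2 and the unadjusted P was under 0.05, with Benjamini-Hochberg adjustment beside it. In adult DPs, 7 of the 8 genes met this threshold, all higher in the pituitary, where 39.1% of all tested genes were DEGs and 19.6% were DEGs higher in the pituitary. CCDC39 was higher by 7.51 ± 0.59 (log2 fold change ± SE) and RSPH1 by 6.26 ± 0.39. The count was 5 of 7 tested in juvenile DPs, 8 of 8 in juvenile MHs and 7 of 7 in adult MHs, against 36.8%, 32.7% and 27.1% of all genes. All of these were higher in the pituitary, as were 18.3%, 20.2% and 14.3% of all genes in the same order. The 8 were chosen with earlier results known, so these counts are a description and no test against those shares. They are also partly set by the count filter, which genes with few long bone reads passed through the pituitary alone. Among others, FOXJ1 and CDHR3 did so in juvenile MHs, with 4 to 7 and 1 to 4 reads in the MHLBJ libraries. In adult DPs FOXJ1 and CCDC39 had 4 to 7 and 3 to 5 reads in the DPLBA libraries. DNAH5 had 3 to 11 reads in the DPLBJ libraries. For such genes the direction was set before the test. FOXJ1 in juvenile DPs and CDHR3 in adult MHs did not pass and were not tested.

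Other cilia genes were tested without the 8, although this list too was chosen with earlier results of these data known. Of 121 further genes listed by their role in motile cilia, 108 were found, and in adult DPs 98 of these were tested. DEGs made up 77 of them, 74 higher and 3 lower in the pituitary, against 39.1% of all genes (19.6% higher and 19.5% lower), and 73 had an adjusted p under 0.05, against 38.4% of all genes. The median log2 fold change was 2.89 over the list and 0.01 over all tested genes. In juvenile DPs 77 of 98 were DEGs (73 higher), in juvenile MHs 77 of 100 (75 higher) and in adult MHs 68 of 96 (68 higher). Leaving out any 1 library gave between 61 and 82 such genes in these 4 comparisons. Genes with few long bone reads entered these counts through the pituitary alone. CFAP73, listed as CCDC42B, had 31 to 57 reads in the MHPJ libraries and 0 in the MHLBJ libraries.

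The counts of genes higher in the pituitary are given by role, and differences between roles were not tested. In adult DPs, 7 of 8 tested radial spoke genes, 8 of 10 central pair genes, 7 of 9 dynein assembly factors, 7 of 9 ruler and nexin-dynein genes, 5 of 8 inner arm genes and 3 of 4 docking genes were higher, with none lower. Among outer arm genes 4 of 7 were higher and 1 lower, among microtubule inner proteins 11 of 16 and 1, and among regulators 1 of 3 and 1. Of the other genes of ciliated cells on the list, 21 of 24 were higher and 0 lower. Over all genes 19.6% were higher and 19.5% lower. In juvenile DPs the outer arm count was 3 of 7 higher and 1 lower, and that of the ruler and nexin-dynein genes 5 of 9 higher. In adult DPs, DRC7, listed as CCDC135, a subunit of the nexin-dynein complex, had 360 to 691 reads in the DPPA libraries and 1 to 3 in the DPLBA libraries, so it was at least 152-fold higher. RIBC2, a protein inside the doublets, was higher by 6.81 ± 0.78, on 0 to 6 reads in the DPLBA libraries. In juvenile DPs, DNAJB13, a chaperone of the radial spoke, was at least 105-fold higher and CFAP100, listed as CCDC37, at least 78.5-fold. CFAP157, listed as C9orf117, was at least 97.9-fold higher in the pituitary of adult MHs. The floor behind these bounds was 3 reads per library. RIBC2 and the genes given as bounds passed the count filter through the pituitary alone. Their direction was thus set before the test, and no p-value is given for them.

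Few genes of the list went the other way. MYB, a regulator of early ciliogenesis that is also known from blood precursors, was lower in the pituitary by 3.76 ± 0.50 in adult DPs (adjusted p = 0.00155), with 0.46 ± 0.23 RPKM (SD, n = 3) in DPPA and 5.86 ± 1.93 in DPLBA. EFHC2, a microtubule inner protein, was lower by 2.90 ± 0.50 (adjusted p = 0.00432). DNAH17, an outer arm heavy chain known from sperm, was lower by 2.10 ± 0.66 (adjusted p = 0.0397). These 3 were the DEGs lower in the pituitary of adult DPs. The 45 genes of transport and the transition zone, which every cilium needs, gave 26 DEGs higher and 1 lower there, with a median log2 fold change of 1.16. These DEGs were 60% of the 45, against 39.1% of all genes (19.6% higher and 19.5% lower).

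By level, the leading genes of the roles differed widely within the pituitary. CCDC78, known from the multiplication of centrioles, averaged 324 RPKM and ranged from 95.1 to 1082, while CFAP20 (C16orf80), a protein of the doublets in all cilia, averaged 156 RPKM and ranged from 136 to 174. CFAP20 was also high in the long bone, at 107 to 245 RPKM. ENKUR, inside the doublets, averaged 70.2 RPKM and SPAG6, of the central pair, 26.8, and their long bone levels were 1.69 to 4.82 and 0.18 to 6.81. RSPH9 of the radial spoke head averaged 20.5 RPKM. CCDC151, which docks the outer arm, averaged 25.8 RPKM. DNAL1, a light chain of the outer arm, averaged 14.7 RPKM and DNAH12, an inner arm heavy chain, 6.33.

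In the juvenile pituitary, the breeds differed in opposite directions for different cilia genes. CDHR3 was lower in DPs by 4.49 ± 0.30 on the log2 scale, FOXJ1 by 2.5 ± 0.87, CCDC39 by 1.85 ± 0.54 and DNAH9 by 1.22 ± 0.27, while RSPH1 was higher by 1.08 ± 0.35. These 5 of 8 met the DEG threshold, 1 higher and 4 lower in DPs, where 20.3% of all genes did, 7.6% higher and 12.7% lower. Since the 8 were chosen with earlier results known, this count is a description and no test against that share. For LRRIQ1, MNS1 and DNAH5 the log2 fold changes were -1.07 ± 0.64, -0.53 ± 0.50 and -0.32 ± 0.26. CCDC39 overlapped between the breeds, since MHPJ replicate 3 (5.15 RPKM) lay below DPPJ replicate 2 (6.18), whereas CDHR3, FOXJ1, DNAH9 and RSPH1 did not. The share of all genes without overlap between these groups was not counted, so this is a description only.

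The other cilia genes split in the same comparison. Of 101 tested, 30 were DEGs, 17 higher and 13 lower in DPs, against 20.3% of all genes (7.6% higher and 12.7% lower), and 12 had an adjusted p under 0.05 with edgeR, against 10.7%. Their median log2 fold change was -0.21, against -0.07 over all genes. The balance of the 2 directions depended on single libraries. For the fits that follow, the share of all genes was not counted. There were 36 DEGs without MHPJ replicate 3 (11 higher and 25 lower) and 33 without DPPJ replicate 2 (14 and 19), but 19 without DPPJ replicate 1 (12 and 7), 19 without DPPJ replicate 3 (11 and 8), and 23 with all pituitary libraries in the fit (17 and 6). The 12 with an adjusted p under 0.05 became 0 when MHPJ replicate 1, DPPJ replicate 1 or DPPJ replicate 3 was left out, 3 without DPPJ replicate 2, 2 without MHPJ replicate 3, 34 without MHPJ replicate 2, and 35 with DESeq2. All 3 MHPJ libraries lacked the hormone genes and all 3 DPPJ libraries held them, so breed and hormone cell content cannot be told apart in any of these values.

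Lower in juvenile DPs were WDR63, which is linked to the inner dynein arms, by 3.94 ± 1.27 (adjusted p = 0.0972), WDR49 by 3.33 ± 1.00 (adjusted p = 0.0839) and CFAP73, listed as CCDC42B, by 3.31 ± 0.96 (adjusted p = 0.0781), none of which passed the adjustment. WDR63 was at 0.26 ± 0.38 RPKM in DPPJ and 3.58 ± 2.29 in MHPJ (SD, n = 3). MYB was lower by 2.80 ± 0.87 (adjusted p = 0.0905). CFAP65, listed as CCDC108, was lower by 2.71 ± 0.59 with an adjusted p of 0.0418, at 0.26 ± 0.12 RPKM in DPPJ and 1.47 ± 0.75 in MHPJ. Of the 8 tested radial spoke genes 0 were among the lower ones, and of 8 inner arm genes 2, DNAH10 and DNAH1, were. Over all genes 12.7% were lower. With so few genes per role these counts are a description, and differences between roles were not tested.

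Among the genes higher in juvenile DPs, TTC12, a dynein assembly factor, stood at 14.9 ± 2.74 RPKM in DPPJ and 2.61 ± 1.30 in MHPJ, a log2 fold change of 2.34 ± 0.44 (adjusted p = 0.0316). DNAJB13 was at 14.7 ± 1.68 and 2.59 ± 1.32 RPKM, a log2 fold change of 2.33 ± 0.41 (adjusted p = 0.0271). CFAP54, listed as C12orf55, of the central pair, was higher by 2.01 ± 0.32 (adjusted p = 0.0231). DEUP1, listed as CCDC67, which builds the deuterosomes on which centrioles multiply, was higher by 2.02 ± 0.79 (adjusted p = 0.145), and EFCAB1, of the outer arm docking complex, by 1.97 ± 0.73 (adjusted p = 0.127). By role, 4 of 8 radial spoke genes (RSPH9, NME5, RSPH14 as RTDR1, and DNAJB13), 3 of 10 central pair genes, 2 of 4 docking genes and 2 of 9 dynein assembly factors were higher, while 1 central pair gene and 1 assembly factor were lower. Over all genes 7.6% were higher and 12.7% lower, and differences between roles were not tested. The genes of transport and the transition zone had a median of 0.61 here, with 5 higher and 1 lower among the DEGs of 45 tested, 13.3% of them against 20.3% of all genes. Without the fold change threshold, 9 of the 45 had an adjusted p under 0.05 with edgeR, against 10.7% of all genes. Of their log2 fold changes, 38 lay above 0 and 7 below. In the adult long bone that list gave 8 DEGs (1 higher and 7 lower in DPs), 17.8% against 18.3% of all genes, and in MH pituitary stages 3, all lower in juveniles, 6.67% against 7.74%.

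**Figure D3:**
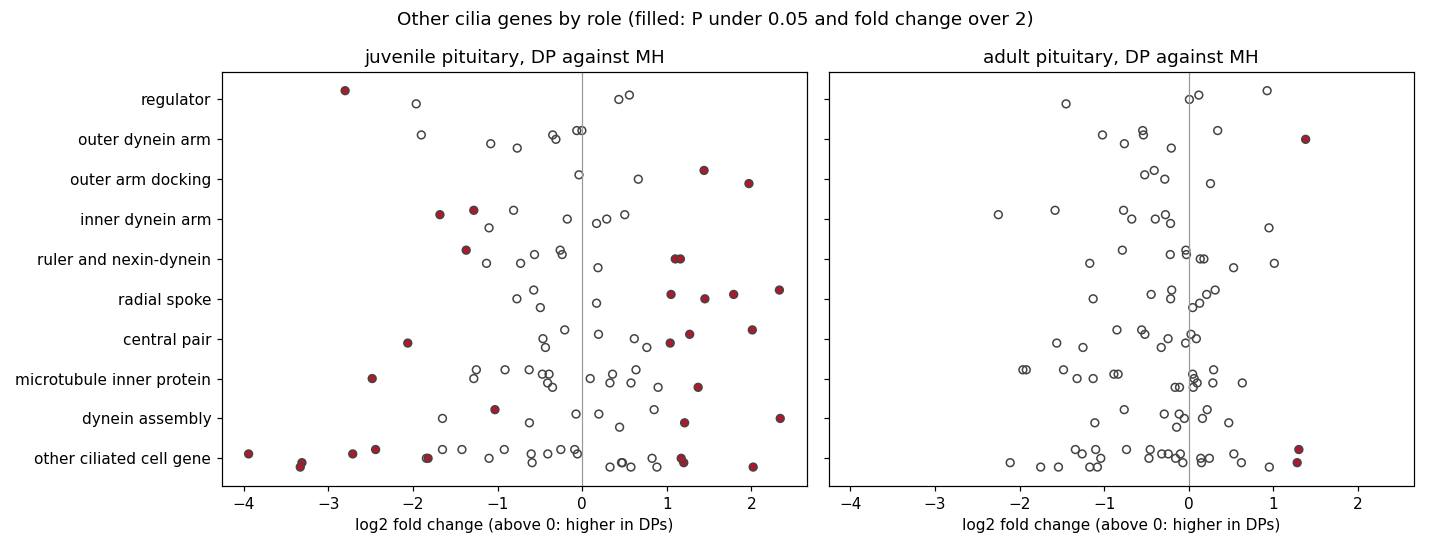
Log2 fold changes (DP over MH) of the other cilia genes by role in the juvenile and the adult pituitary, 1 point per gene, filled where the gene met the DEG threshold. Radial spoke and docking genes that met it lie above 0 in juveniles, inner arm genes that met it lie below 0, and 3 genes met it in adults. Differences between roles were not tested.

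In the adult pituitary the breed difference turned on 1 library. With all 6 libraries the log2 fold changes of DPs over MHs were -1.90 ± 1.44 for FOXJ1, -1.40 ± 1.31 for CCDC39, -1.26 ± 1.18 for LRRIQ1 and -1.13 ± 1.64 for CDHR3, and every one of the 8 genes overlapped. Without MHPA replicate 1, the library with 12029 RPKM of TTR, the same values were 1.19, 1.58, 1.56 and 3. MNS1 went from -0.06 to 1.34, DNAH9 from -0.73 to 0.67 and RSPH1 from 0.30 to 1.11. Without DPPA replicate 1 as well, the other hormone-poor adult library, they were 0.41 for FOXJ1, 1.31 for CCDC39, 1.47 for LRRIQ1, 1.66 for CDHR3, 1.24 for MNS1, 0.30 for DNAH9 and 1.36 for RSPH1. A fit with the replicate number as a block was also run, although the numbers were not shown to pair these libraries. Replicate 1 is the hormone-poor library of both groups. With the block the values were -0.67 for FOXJ1, -0.24 for DNAH9, 0.01 for CCDC39, 0.30 for LRRIQ1, 0.40 for CDHR3, 0.53 for MNS1 and 0.55 for RSPH1. CCDC39, LRRIQ1, CDHR3 and MNS1 thus turned in direction under the block. What the choroid plexus and glial RNA in these libraries contributes was not tested.

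The other cilia genes depended on the same library. With all 6 adult libraries, 3 of 100 tested were DEGs, all higher in DPs, against 2.93% of all genes (1.75% higher and 1.18% lower): CCDC78 by 1.30 ± 0.44, ERICH3 (C1orf173) by 1.28 ± 0.51 and DNAH8, an outer arm heavy chain, by 1.38 ± 0.56. With edgeR 0 had an adjusted p under 0.05, against 0.0348% of all genes, and 4 had an unadjusted P under 0.05, while DESeq2 gave 0 adjusted and 5 DEGs. The count was 19 without MHPA replicate 1, all higher in DPs, and 20 without both MHPA replicate 1 and DPPA replicate 1, all higher and 5 with an adjusted p under 0.05. It was 1 without DPPA replicate 1, 1 without DPPA replicate 3, 6 without MHPA replicate 2 (2 higher) and 1, a lower one, without MHPA replicate 3. The median log2 fold change of the list was -0.22 with all libraries and 0.57 without MHPA replicate 1, against -0.01 and 0.03 over all tested genes. The share of all genes at the DEG threshold was not counted in the fits with libraries left out. Whether the moves in count are particular to the list is therefore not known.

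Whether the breed difference itself changed with stage was tested as an interaction over the 12 pituitary libraries. For 15 of 103 other cilia genes it did at the DEG threshold, 11 with a difference more in favour of DPs in juveniles and 4 with the opposite, against 15.7% of all genes (6.8% and 8.87%). By total count the list did not stand out from genes at large, and 0 had an adjusted p under 0.05 with edgeR. Of the 45 transport and transition zone genes 9 met the threshold, all in favour of DPs in juveniles. RSPH9 was 1 of the 15, with 29.8 ± 7.04 RPKM in DPPJ against 7.49 ± 1.33 in MHPJ, and 17.6 ± 8.94 in DPPA against 27 ± 12.9 in MHPA (SD, n = 3). Without MHPA replicate 1 the count was 35, with 7 in favour of DPs in juveniles and 28 the other way, and without DPPA replicate 1 it was 9. The share of all genes was not counted without these libraries.

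**Figure D4:**
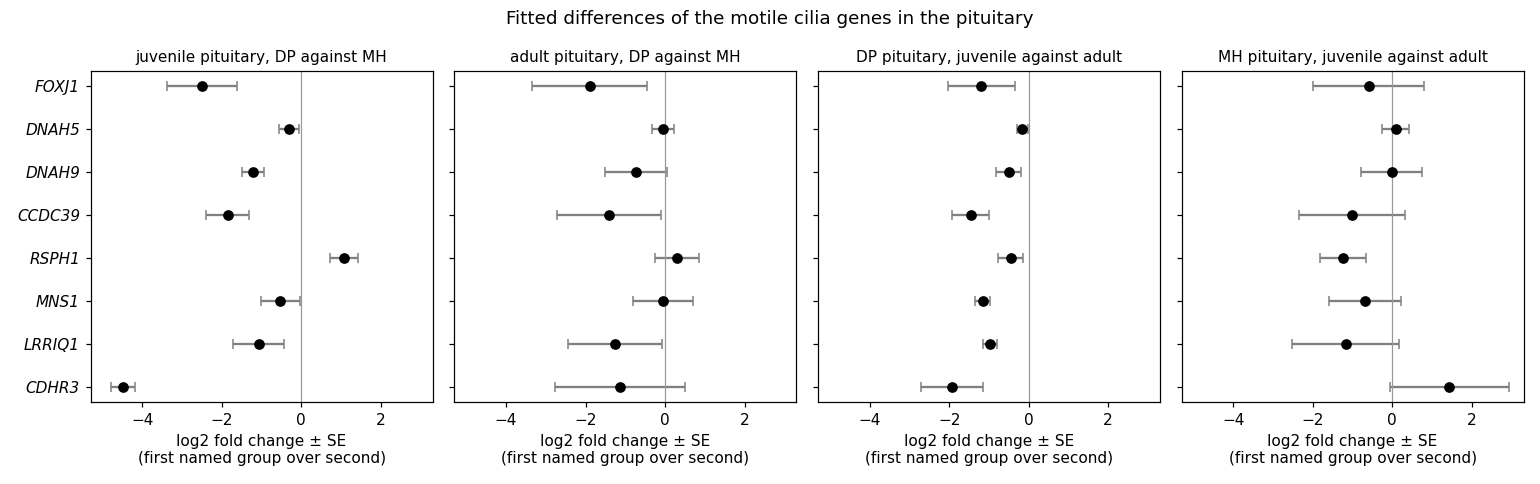
Log2 fold change with its standard error for the 8 cilia genes in the 4 pituitary comparisons, the first named group over the second. The bars of the adult and the MH comparisons are wide, all 8 genes lie below 0 in DP juveniles against adults, and RSPH1 alone lies above 0 between juvenile DPs and MHs.

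Between the stages of DPs, MNS1, CCDC39 and CDHR3 were lower in juveniles at the DEG threshold. MNS1 fell by 1.16 ± 0.18 on the log2 scale, from 90.3 ± 14.2 RPKM in DPPA to 44.1 ± 5.37 in DPPJ (SD, n = 3), with no overlap. LRRIQ1 was lower by 0.97 ± 0.17, at 18.6 ± 2.30 against 10.4 ± 1.2 RPKM, also without overlap, while CCDC39 was lower by 1.46 ± 0.47 with overlap. CDHR3 was lower by 1.93 ± 0.79, and by 0.59 without DPPA replicate 1, whose 1.43 RPKM stood above the 0.27 and 0.3 RPKM of its group. FOXJ1 likewise went from -1.19 to -0.41 without that library, whereas MNS1 stayed at -1.05 and LRRIQ1 at -0.88. The log2 fold changes of DNAH9, RSPH1 and DNAH5 were -0.50 ± 0.32, -0.46 ± 0.33 and -0.16 ± 0.14. The DEGs were 3 of the 8, against 3.56% of all genes (2.64% lower in juveniles). This count too is a description of genes chosen with earlier results known, and no test against that share. How many of all genes do not overlap between these groups was not counted.

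The other cilia genes of the DP pituitary gave 8 DEGs of 101, all 8 lower in juveniles, against 3.56% of all genes (0.929% higher and 2.64% lower), and 74 of the 101 had a log2 fold change below 0. DNAAF1, a dynein assembly factor, was lower by 1.57 ± 0.47, DNAI2, an outer arm intermediate chain, by 1.47 ± 0.44, CFAP44 (WDR52) by 1.27 ± 0.36 and VWA3B by 1.23 ± 0.38. DNAH8 was lower by 1.28 ± 0.42. None passed the adjustment (adjusted p = 0.419 for each of these 5 with edgeR): 0 were under 0.05, with 19 at an unadjusted P under 0.05 and 2 adjusted with DESeq2. The count was 16 without DPPA replicate 2, 13 without DPPJ replicate 2, 4 without DPPJ replicate 1 and 3 without DPPJ replicate 3, with at most 1 gene higher in juveniles in each. With all pituitary libraries in the fit it was 1. The share of all genes was not counted in these alternatives.

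In MHs the stages could not be separated from MHPA replicate 1. With all libraries, juvenile over adult log2 fold changes were -0.59 ± 1.40 for FOXJ1, -1.01 ± 1.33 for CCDC39, -1.17 ± 1.35 for LRRIQ1 and 1.43 ± 1.50 for CDHR3. They were 2.49, 1.97, 1.64 and 5.55 without that library, so 3 of these 4 changed direction. RSPH1 kept its direction, at -1.25 ± 0.58 with it and -0.44 without it, and DNAH5 was at 0.08 and 0.40. Among the other cilia genes, 11 of 103 were DEGs, 2 higher and 9 lower in juveniles, against 7.74% of all genes (4.5% higher and 3.24% lower). Without MHPA replicate 1 there were 23, 18 higher and 5 lower, without MHPJ replicate 3 there were 7, and with all pituitary libraries in the fit there were 18, 3 higher and 15 lower. The share of all genes was not counted in these alternatives.

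Of the genes that differed between the stages of MHs, TTC12 was lower in juveniles by 2.26 ± 0.46, at 2.61 ± 1.30 RPKM in MHPJ and 14 ± 0.82 in MHPA, ARMC4, which docks the outer arm, by 1.91 ± 0.42 and RSPH9 by 1.59 ± 0.40. SPAG6 was lower by 1.81 ± 0.70 and CFAP54, listed as C12orf55, by 1.70 ± 0.37, both of the central pair. CCDC78 went the other way, higher by 2.24 ± 0.81, with 607 ± 494 RPKM in MHPJ and 149 ± 32.1 in MHPA, as did DNAH3, an inner arm heavy chain, by 1.97 ± 0.58. None had an adjusted p under 0.05 with edgeR (0 of 103, with 15 at an unadjusted P under 0.05, and 7 adjusted with DESeq2). The juvenile breed comparison and this one share the MHPJ libraries.

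In the long bone epiphysis only MNS1 among the 8 genes was at a level above a few RPKM. It stood at 12.6, 44.5 and 33.5 RPKM in DPLBJ, 10.6, 8.91 and 10.9 in DPLBA, 14, 10.1 and 26.6 in MHLBJ and 19.3, 11.2 and 14.5 in MHLBA. The juvenile DP libraries were all above the adult ones, by 1.62 ± 0.47 on the log2 scale, where 3.14% of all genes were DEGs and 1.58% were DEGs higher in juveniles. In adults MNS1 was lower in DPs by 0.82 ± 0.42 and CDHR3 higher by 1.19 ± 0.58, the latter at 0.26 ± 0.04 against 0.11 ± 0.01 RPKM on 4 to 23 reads, both without overlap. CCDC39, which was not tested there, was lower without overlap in reads scaled by library size, on 3 to 5 against 5 to 12 reads. How many of all genes do not overlap between long bone groups was not counted, so this is a description only. Most of the 8 had too few reads for a firm comparison in this tissue: RSPH1 had 0 to 28 reads per library and LRRIQ1 1 to 75.

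Other cilia genes differed between the breeds in the long bone about as often as genes at large. In adults 18 of 83 were DEGs (10 higher and 8 lower in DPs), against 18.3% of all genes (10.3% and 8.03%), and without DPLBA replicate 3 there were 11. MYB was higher in DPs by 4.27 ± 0.87 (adjusted p = 0.0519), at 5.86 ± 1.93 RPKM in DPLBA and 0.23 ± 0.22 in MHLBA, and DNAH17 by 2.63 ± 0.47 (adjusted p = 0.0406), the 1 gene under 0.05 with edgeR, where 2.24% of all genes were. CFAP161 (C15orf26), inside the doublets, was lower by 2.96 ± 0.65 (adjusted p = 0.0615) and CFAP53 (CCDC11) by 2.05 ± 0.44 (adjusted p = 0.0576). In juveniles 9 of 72 were DEGs (5 higher and 4 lower in DPs), against 13.8% of all genes (8.33% and 5.47%). DNAH17 was higher by 3.03 ± 0.91 (adjusted p = 0.184) and IQCA1, of the nexin-dynein group, lower by 2.03 ± 0.34 (adjusted p = 0.136), at 7.77 ± 2.24 RPKM in DPLBJ and 35.6 ± 6.47 in MHLBJ. Without DPLBJ replicate 1 the juvenile count was 16, and without DPLBJ replicate 2 it was 14.

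Between stages the long bone gave 3 DEGs of 71 in DPs and 3 of 79 in MHs, against 3.14% and 2.91% of all genes. The share of all genes was 1.58% higher and 1.56% lower in juvenile DPs, and 0.763% higher and 2.14% lower in juvenile MHs. In DPs the 3 were DRC1, CFAP45 (CCDC19) and EFHC2, all lower in juveniles, by 1.44 ± 0.58, 1.1 ± 0.41 and 1.09 ± 0.43. In MHs DNAH6 and SPAG6 were lower by 1.38 ± 0.56 and 1.07 ± 0.39 and IQCA1 was higher by 1.31 ± 0.51. The adjusted p was 0.988 for each in DPs and 0.998 for each in MHs with edgeR. In DPs the count was 6 without DPLBJ replicate 1 or DPLBJ replicate 2, and 1 without DPLBJ replicate 3, DPLBA replicate 1 or DPLBA replicate 3. In MHs it was 6 without MHLBA replicate 3 and 1 without MHLBJ replicate 2.

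Across the 12 pituitary libraries the 8 genes did not vary as a block. FOXJ1 and DNAH9 had the closest pattern on log2(CPM + 1), with a Pearson r of 0.97, and 0.93 without MHPA replicate 1, and FOXJ1 and CCDC39 had 0.94 and 0.88. RSPH1 and CDHR3 ran apart, at -0.39 and, without that library, -0.73. These values describe libraries that differ in tissue content and carry no p-value. Among 12741 genes outside the cilia lists, CCDC146 (r = 0.971), LRRC71 (0.965), TMEM232 (0.959), LRRC18 (0.955) and AKAP14 (0.953) were closest to the mean pattern of the 8, and WDR38, ABCD3, ADAM17, FAM81B and RNF13 followed, down to 0.929. CCDC146 ranged from 2.58 to 42.3 RPKM and LRRC71 from 1.45 to 34.4, each highest in MHPA replicate 1. Among 102 other cilia genes, SPAG17 of the central pair (0.968), RIBC2 (0.945) and CFAP126, listed as C1orf192 (0.942), came first, and IQCD, CFAP44 (as WDR52), LRRC6, LRRC48, TP73, WDR16 and EFHC2 followed, down to 0.908. Without MHPA replicate 1 the r of SPAG17 was 0.952 and that of CCDC146 was 0.948.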

How the data were processed

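Per the labels, directional libraries were made from rRNA-depleted RNA of female horses and sequenced as 151-nt paired ends, and the submitters' processing notes name bcl2fastq, TopHat2 and edgeR. The study's methods name single-end reads, Salmon and the EquCab 3.0 genome instead, so which aligner made the tables is not settled. The authors deposited whole read counts per gene, not normalized, and RPKM values, which they scaled by gene length and library size. Genes were found by the symbol in the files, with 31 older symbols tried (13 of 121 other cilia genes, 3 of 48 transport genes and HYDIN were not found). In DPLBA replicate 2, 294 of 10842 RPKM values were over 2% from what the reads give, but no member's. No pair of the 276 pairs of libraries shared more than 1.01% of equal reads.

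Comparisons used edgeR 4.0.16 (R 4.3.3) on the counts of the 6 libraries compared, with TMM, filterByExpr (minimum count 10), glmQLFit and glmQLFTest, fitted on all genes. The threshold for DEGs was a fold change over 2 at an unadjusted P under 0.05, with Benjamini-Hochberg adjustment beside it. The interaction of breed and stage used the 12 pituitary libraries. The script was tested on simulated data. Alternatives were DESeq2 1.42.0, its size factors in edgeR, no filter, all libraries of a tissue in 1 fit, a replicate block and each library left out. The share of all genes at the DEG threshold was counted in the main fits only, not in the alternatives. Leaving out 2 hormone-poor libraries together was chosen after seeing the data. RPKM values are given as levels and were not tested. The share of all genes whose ranges do not overlap was counted between the tissues only, not between groups of 3 libraries. Where no library of a group exceeded 3 reads of a gene, its fold change is given as a bound against that floor, which covers counting error only.

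The members and gene lists were chosen with earlier results of these data known. Named genes are the members, up to 5 DEGs of the other cilia list with the largest fold change in each direction, the genes of highest level in a role, the markers, and the 10 of closest pattern among genes with a mean CPM of at least 1. Genes named beyond these (DNAH10, DNAH1, NME5, RSPH14) were added after their values were seen. Pituitary and long bone came from the same 12 horses per the study's methods, but no source used here says that equal replicate numbers mark 1 horse, and p-values measure the spread between 3 libraries per group. In the adult pituitary breed comparison alone, same-numbered libraries deviated together from their group means (r = 0.671, 0.583 and 0.413). Not every library there deviated most like its own number, and the horses are of different breeds. Replicate 1 is the hormone-poor library of both groups, so a shared number and shared tissue content cannot be told apart.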

Additional observations from a re-analysis of the deposited data

Results flagged for a closer look

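The breed difference in the pituitary differed between juveniles and adults for 15 of 103 other cilia genes by an interaction test in edgeR (unadjusted P under 0.05 and fold change over 2), against 15.7% of all tested genes. The difference of DPs over MHs was more positive in juveniles for 11 of them, among them CFAP54 (C12orf55) by 2.58 ± 0.51, RSPH9 by 2.26 ± 0.60, TTC12 by 2.19 ± 0.70, DNAJB13 by 2.03 ± 0.56 and SPAG6 by 2.01 ± 0.79 on the log2 scale. It was more negative for 4: MYB by -3.70 ± 1.46, CCDC78 by -2.95 ± 0.98, DNAH3 by -2.01 ± 0.69 and DNAH8 by -1.68 ± 0.73. With edgeR 0 had an adjusted p under 0.05, 16 had an unadjusted P under 0.05, and DESeq2 gave 8 adjusted. Without MHPA replicate 1 the count was 35, of which 7 were more positive and 28 more negative. Without DPPA replicate 1 it was 9, and without both it was 25 (6 and 19, 3 adjusted). The share of all genes was not counted in the fits with libraries left out. The part of the hormone-poor libraries in this was not tested. For the 8 members the interaction was smallest for LRRIQ1 (0.21 ± 1.42) and largest for CDHR3 (-3.37 ± 1.84).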

How the results depend on the processing

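Counts below are other cilia genes past the DEG threshold. How many of all genes passed it was not counted in the alternatives, so moves particular to the list cannot be told from moves of genes at large. With DESeq2 they were 14 in place of 9 in the juvenile long bone, 5 in place of 3 in the adult pituitary and 5 in place of 3 in MH long bone stages. With all libraries of a tissue fitted together they were 1 in place of 8 in DP pituitary stages, 18 in place of 11 in MH pituitary stages and 5 in place of 3 in MH long bone stages, where no low-count filter gave 6. Without DPPA 1 and MHPA 1 together they were 20 in the adult pituitary and 25 for the interaction. Leaving out 1 library gave 19 to 36 in the juvenile pituitary, 6 to 16 in the juvenile long bone, 1 to 19 in the adult pituitary, 11 to 18 in the adult long bone, 3 to 16 and 1 to 6 between DP stages in the pituitary and long bone, 7 to 23 and 1 to 6 between MH stages, and 9 to 35 for the interaction. The pituitary against long bone counts stayed within 1.5 times under every alternative run, between 61 and 87. The cause of these moves was not tested. An adjusted p under 0.05 from edgeR was counted without the fold change threshold. It was met by 12 of 101 tested genes in the juvenile pituitary (30 DEGs) and 1 of 83 in the adult long bone (18 DEGs). In the remaining breed and stage comparisons none met it. Another 930 alternative values were computed for the members' fold changes: 875 moved by less than the spread, 55 by more and 52 changed sign.

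With a replicate block the adult pituitary count, where same-numbered libraries deviate together but pairing was not shown, was 4. The block moved no count by more than 1.5 times. In the 4 comparisons of tissues both groups come from the same 3 horses per the study's methods, but no source says that equal numbers mark 1 horse. With the block these counts were 76, 75, 75 and 74 in place of 77, 77, 77 and 68 in juvenile DPs, adult DPs, juvenile MHs and adult MHs. In the other 7 comparisons the libraries share only a number. There the block gave 30 in the juvenile pituitary (0 adjusted, against 12). Over all 12 comparisons, only between the tissues of adult DPs did every library deviate most like its own number, a hint from the data.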
